A study of Mus musculus with 9 samples.

Results

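The nuclear genes for subunits of the mitochondrial oxidative phosphorylation complexes were read in mouse embryonic stem cells on 9 microarrays. Members were chosen by symbol: genes whose name starts with Ndufa, Ndufb, Ndufc, Ndufs, Ndufv, Uqcr, Cox4i, Cox5, Cox6, Cox7, Cox8 or Atp5, together with Sdha, Sdhb, Sdhc and Sdhd, after assembly factors and pseudogenes were dropped. A gene counted when at least 1 probe set carried its symbol alone, and its probe set of highest mean signal stood for it. This gave 82 of the 18193 genes so named on the array: 36 for complex I, 4 for complex II, 8 for complex III, 17 for complex IV and 17 for complex V. Of these, 79 passed the filter on low signals and were tested, among 13376 genes and 29811 probe sets tested in all. Ndufb4, Cox7b2 and Cox8b did not pass it, with signals of at most 7.41, 10.6 and 16.5 on any array. Each was read by 1 probe set, and how well that probe set reads the transcript was not tested. Subunit genes without a probe set that carries their symbol alone are not analysed here.

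Complexes I to IV form the respiratory chain of the inner mitochondrial membrane. Complex I takes electrons from NADH and complex II from succinate, complex III passes them from ubiquinol to cytochrome c, and complex IV hands them to oxygen. Complexes I, III and IV pump protons, and complex V, the ATP synthase, uses their return to make ATP. Most subunits are encoded in the nucleus and a few in mitochondrial DNA, and all of complex II is nuclear. Pluripotent stem cells are known for drawing much of their energy from glycolysis, and nitric oxide is known to compete with oxygen at complex IV.

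The cells were of the D3-pOct4 line, a mouse embryonic stem cell line, grown in medium with fetal bovine serum for 7 days in 3 conditions with 3 arrays each. Medium of the first group held 1000 U/ml LIF (leukemia inhibitory factor), a cytokine that keeps such cells undifferentiated. The second group had no LIF, and the third had no LIF but 2 µM of DETA/NO, a slow donor of nitric oxide. Replicates 1, 2 and 3 of each group carry passages 31, 33 and 34. Nothing in the labels says that the cultures were independent beyond the passage, so the tests gauge array-to-array spread, part of which may be technical. All 10 stem cell markers fixed for the check were above the filter, with Pou5f1 at 958.3 to 3211 and Sox2 at 1510.0 to 3866. Of the 8 fibroblast markers, 4 passed it. Pdgfrb read 17.1 to 234.6 and Thy1 23.98 to 94.48, while Col1a1 and Col1a2 read at most 25.53 and 27.37. Of those that did not pass, Col3a1 read at most 19.98, and Lum, Dcn and Postn stayed at or below 12.8. Summed, the list read 84.6 to 378.8. Of 8 muscle markers, 5 passed, and their list summed to 79.0 to 652, with Acta1 at 14.5 to 589.7.

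Several arrays stood apart. All arrays are scaled to the same trimmed mean, yet the median signal was 20.8 to 23.3 on LIF replicate 1 and on donor replicates 1 and 2, called the 3 brighter arrays here, and 13.9 to 17.8 on the other 6. The name refers to the median alone. Summed over all tested probe sets, the signal was lower on these 3, at 6994000 to 7283000, than on the other 6, at 7380000 to 8195000. Socs3, a gene induced by LIF, read 282 on the array labelled LIF replicate 2 and 3054 on that labelled no LIF replicate 2, which goes against both labels, while the other LIF arrays read 3213 and 1794 and the other arrays without LIF at most 405.3. No LIF replicate 1 and donor replicate 3 were alike, with an SD of 0.18 between their log2 signals over the 79 members, against at least 0.33 for every other pair of arrays. The main results are therefore given with and without these arrays. Values listed for a group are in the order of replicates 1, 2 and 3.

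Promoters were read to show what sequence the members share before their signals are compared. RefSeq windows of GRCm38.p6, 250 bases before to 50 after the start of a gene, were matched to 67 of the 82 members, in 72 windows. Windows were searched on both strands for motifs of factors known to drive respiratory genes: GCGC, any base and TGCGC for NRF1, CCGGAAGT for GABPA, AANATGGCG for YY1 and TCAAGGTCA for ERR alpha. The NRF1 letters were in 16 of the 72 member windows, or 22.2%, against 4.6% of all 32851 windows searched. Shares were 12.5% against 2.38% for the YY1 letters, 6.94% against 3.89% for GABPA and 2.78% against 0.423% for ERR alpha. A TATA box, TATAAA, was in 12.5% of member windows and 13.6% of all windows. By complex, NRF1 letters were in 6 of 34 windows of complex I, 2 of 3 of complex II, 1 of 5 of complex III, 1 of 12 of complex IV and 6 of 18 of complex V. Member windows had a median GC content of 58.5%, against 52.7% over all windows, and a match is a description of letters, not of binding.

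The 5 stretches that follow, each the 150 bases before the start and all on the minus strand, show each of the 4 respiratory motifs at least 1 time and cover complexes II to V, with motif letters in capitals. Sdha (complex II, chr13:74350241-74350390) has 3 NRF1 matches and Cox6a1 (complex IV, chr5:115348959-115349108) has 1, all of them on the opposite strand. Uqcrh (complex III, chr4:116075071-116075220) has the GABPA letters on the opposite strand. Atp5j (complex V, chr16:84834977-84835126) has the YY1 letters, and Atp5g3 (complex V, chr2:73911327-73911476) the ERR alpha letters on the opposite strand. The stretch before another start of Atp5j, chr16:84835626-84835775, holds none of the 4 motifs and is not shown. Uqcrh and Atp5j are shown because they swung widely from array to array, as described with their values, and Cox6a1 because it moved little.
Sdha: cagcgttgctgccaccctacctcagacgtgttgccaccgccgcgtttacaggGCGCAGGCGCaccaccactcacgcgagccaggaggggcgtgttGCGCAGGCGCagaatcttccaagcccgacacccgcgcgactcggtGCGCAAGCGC
Uqcrh: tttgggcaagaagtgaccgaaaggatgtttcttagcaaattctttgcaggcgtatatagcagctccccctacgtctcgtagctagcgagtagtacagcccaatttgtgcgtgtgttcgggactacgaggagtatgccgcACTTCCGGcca
Cox6a1: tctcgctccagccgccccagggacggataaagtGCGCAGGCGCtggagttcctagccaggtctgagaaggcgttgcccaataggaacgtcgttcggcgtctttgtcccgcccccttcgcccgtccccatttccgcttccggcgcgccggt
Atp5j: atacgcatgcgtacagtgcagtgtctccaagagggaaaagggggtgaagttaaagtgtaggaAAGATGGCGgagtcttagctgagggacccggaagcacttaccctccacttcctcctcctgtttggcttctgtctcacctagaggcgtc
Atp5g3: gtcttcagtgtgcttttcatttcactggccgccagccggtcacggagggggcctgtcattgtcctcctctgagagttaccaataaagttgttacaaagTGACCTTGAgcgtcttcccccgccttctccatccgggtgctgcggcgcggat

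The first question was whether subunit transcripts differ between cells with and without LIF. Without LIF, 70 of the 79 tested members had a higher mean log2 signal than with LIF and 9 had a lower one. The median difference was 0.32, on the log2(signal + 3) scale used throughout. No member passed the test, with a smallest limma adjusted p of 0.973, and the array-wide share called was 0% of the 29811 probe sets. At an unadjusted limma p under 0.05, 0 members were higher and 0 lower, against 0.275% of all probe sets higher and 1.26% lower. For 14 members every array without LIF was above every array with LIF, and for 0 every one was below; those shares were 2.88% and 4.72% over all probe sets. In bulk RNA, fewer cells of a type and less RNA per cell cannot be told apart.

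Bright genes as a class were also higher without LIF. Among 1202 other genes with a mean signal between the members' quartiles, 548 to 1980, 803 were higher and the median was 0.23, while the median over all tested probe sets was -0.10. For 91 of these 1202 genes every array without LIF was above every LIF array, and for 18 every one was below. At an unadjusted limma p under 0.05, 5 of them were higher and 0 lower. Relative to genes of the same decile of mean signal, the members' median was 0.14, with 57 higher and 22 lower. The difference was widest at passage 31: its median was 0.65 there, 0.22 at passage 33 and 0.06 at passage 34. LIF replicate 1 is a brighter array, and without it the median was 0.17, with 56 members higher. Without both arrays whose Socs3 goes against the label it was 0.40, with 58 higher. Centring each array on its median instead would add 0.22 to every difference here and -0.23 to those of the donor against no LIF, giving members' medians of 0.54 and -0.83. Markers of primitive endoderm, a cell type that embryonic stem cells can form, were lower without LIF for 8 of 8 genes, with a median of -0.98, and their summed signal was 7000 to 18690 with LIF and 2694 to 9351 without. All 8 were highest on LIF replicate 3, without which 7 of 8 were lower and the median was -0.46, and at passage 33 the median was 0.29, with 5 of 8 higher without LIF. Of the stem cell markers, 7 of 10 were higher without LIF, with a median of 0.18. Relative to genes of the same decile of mean signal their median was -0.01, with 5 higher and 5 lower. The part of both lists in the result was not tested.

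By complex, the median difference without LIF was 0.25 for complex I, 0.47 for II, 0.52 for III, 0.26 for IV and 0.45 for V. All members of complexes II, III and V were higher, and 5 of 15 in complex IV were lower. The median over the genes of similar brightness was 0.23. Relative to genes of the same decile of mean signal, the medians were 0.07 for I, 0.32 for II, 0.33 for III, 0.13 for IV and 0.26 for V. The 14 members with every array higher were 4 of complex I, Sdha, Sdhc and Sdhd of complex II, 1 each of III and IV, and 5 of V. The complex III value rested on 1 array, being 0.06 without LIF replicate 1, and the complex IV value was -0.0024 without the second arrays of both groups. The complex V difference also lay mostly at passage 31, with medians of 0.85 there, 0.09 at passage 33 and 0.01 at passage 34.

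The widest median gap lay between cells with the nitric oxide donor and cells without it, both without LIF. With the donor, 76 of 79 members had a lower mean and 3 a higher one. These were Ndufc2 (0.09, SE 0.23), Cox7c (0.04, SE 0.45) and Cox8c (0.63, SE 0.60). The median difference over the 79 members was -0.60, against -0.22 for the genes of similar brightness, of which 859 of 1202 were lower, and 0.08 for all tested probe sets. No member passed: the smallest limma adjusted p was 0.929 and the array-wide share called was 0%. At an unadjusted limma p under 0.05, 7 members were lower (Cox7a1, Ndufa7, Cox8a, Sdhc, Atp5a1, Cox6b2 and Ndufa12) and 0 higher, where 0.782% of all probe sets were lower and 4.24% higher. In 12 members every donor array lay below every array without LIF, and in 0 above, while over all probe sets the shares were 2.52% below and 6.4% above. Of the 1202 genes of similar brightness, 55 lay all below and 19 all above, and 24 were lower and 9 higher at that limma p.

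The 12 members with every array lower were 4 of complex I, Sdha and Sdhc, Uqcrc2, 4 of complex IV and Atp5a1. The medians by complex lay close together, at -0.55 for I, -0.70 for II, -0.67 for III, -0.59 for IV and -0.64 for V. Relative to genes of the same decile of mean signal, the median over all members was -0.44, with 73 of 79 lower. By complex it was -0.41 for I, -0.56 for II, -0.51 for III, -0.45 for IV and -0.48 for V. The donor difference was not seen in every passage. Its median was -1.02 at passage 31 and -0.77 at passage 33, where the donor arrays are brighter ones, and -0.05 at passage 34, where the donor array is not. That last array, donor replicate 3, is also 1 of the 2 alike arrays, and the part of either trait was not tested.

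With array brightness as a block in the limma fit, the donor median shrank to -0.11, with 28 members higher. Donor replicates 1 and 2 are brighter arrays and no array of the no LIF group is. Block and donor thus overlap, and this fit cannot fully part them. Donor replicate 3, the only donor array that is not brighter, is 1 of the 2 alike arrays. Under that block complex III turned to 0.15, complex V was at -0.0034, and complexes I, II and IV were at -0.16, -0.25 and -0.39. Leaving out donor replicate 1 gave -0.40 and leaving out donor replicate 3 gave -0.88. Without the 2 alike arrays the median was -0.89, and without the second arrays of LIF and no LIF it was -0.57. The stem cell markers were lower with the donor too, 10 of 10, with a median of -0.26, against -0.22 for the genes of similar brightness. Relative to genes of the same decile of mean signal their median was -0.10, with 9 of 10 lower. Their part in the result was not tested.

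**Figure D1:**
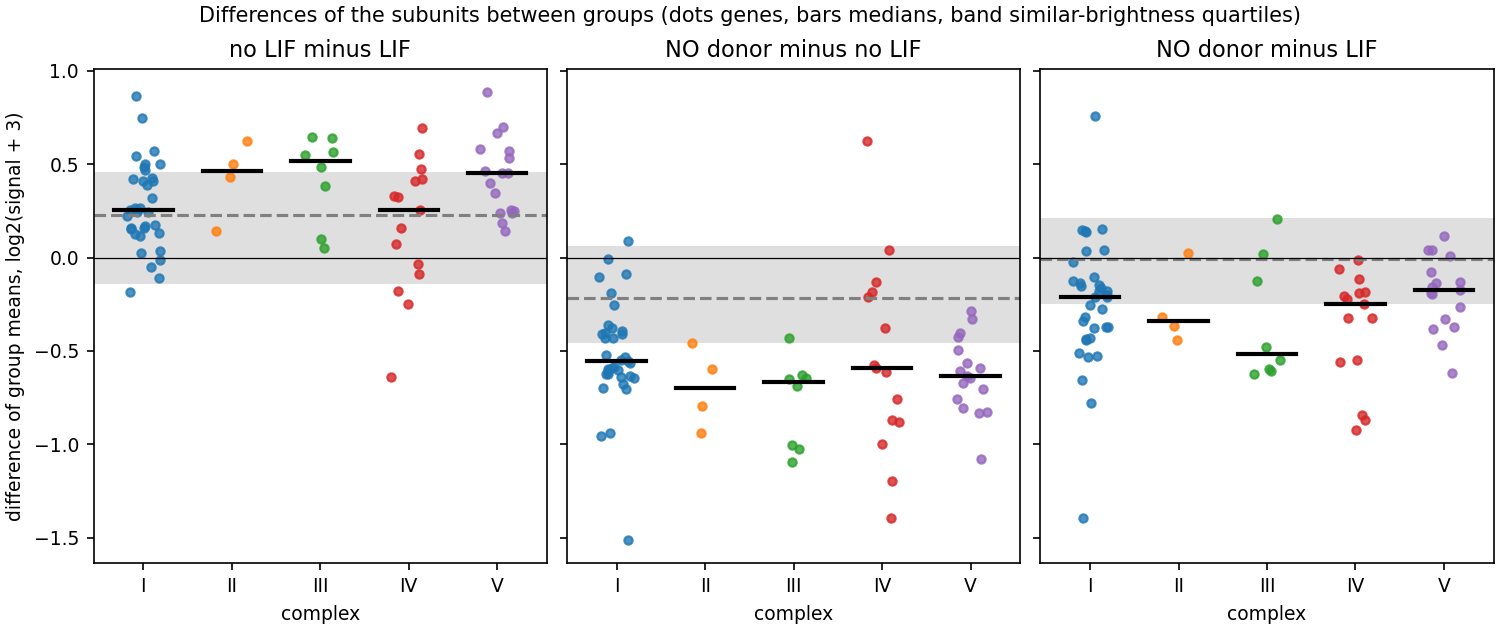
Difference of group means in log2(signal + 3) for each tested subunit gene (dots), by complex (horizontal axis), in the 3 comparisons; black bars are medians, and the dashed line and grey band are the median and quartiles of 1202 genes of similar brightness. In the middle panel 76 of 79 genes are below 0, and the medians of the 5 complexes lie between -0.55 and -0.70.

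Against cells with LIF, the donor-treated cells had 65 of 79 members lower and 14 higher, with a median of -0.21. The genes of similar brightness had a median of -0.01, with 611 of 1202 lower, and all tested probe sets one of 0.02. This comparison shares arrays with both others. The endoderm markers were lower for 8 of 8 genes, with a median of -1.23, or 7 of 8 and -0.78 without LIF replicate 3. Stem cell markers were lower for 7 of 10, with a median of -0.30, and the part of both lists in the result was not tested. The smallest limma adjusted p among members was 1 and 0% of probe sets were called. At an unadjusted limma p under 0.05, 1 member was lower, Cox8a, and 0 higher, beside 0.876% of all probe sets lower and 1.06% higher. Every donor array was below every LIF array for 7 members and above for 0, against 3.19% and 2.79% of all probe sets. Of the 1202 genes of similar brightness, 33 lay all below and 22 all above, and 10 were lower and 5 higher at that limma p.

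Complex medians against LIF were -0.21 for I, -0.34 for II, -0.51 for III, -0.25 for IV and -0.18 for V. In complex IV all 15 tested members were lower. Relative to genes of the same decile of mean signal, the medians were -0.24 for I, -0.35 for II, -0.54 for III, -0.28 for IV and -0.17 for V. The brightness block gave -0.04 over all members and 0.22 for complex V, and leaving out donor replicate 1 gave -0.11, with 33 members higher. Leaving out LIF replicate 1 or donor replicate 3 moved it the other way, to -0.46 and -0.47. Without the second arrays of LIF and no LIF the median was -0.20, and without the alike arrays it was -0.47.

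**Figure D2:**
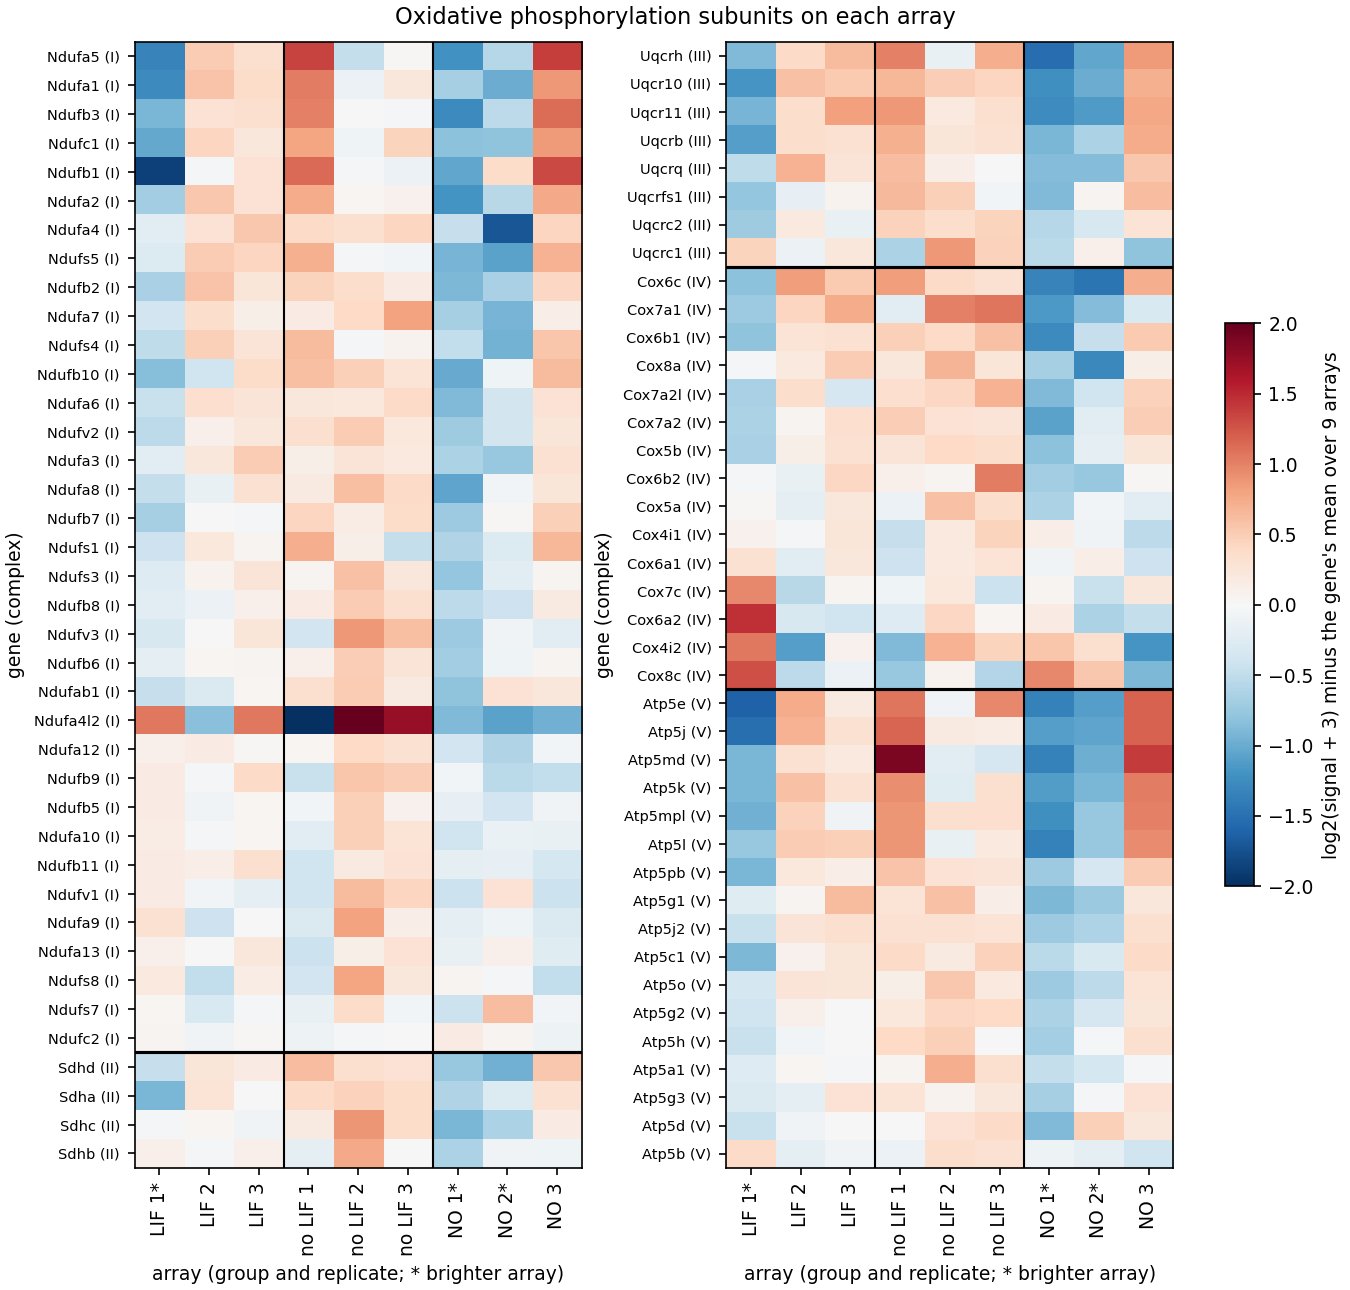
Deviation of each tested subunit gene from its own mean over the 9 arrays, in log2(signal + 3), with 1 row per gene, grouped by complex and ordered by the difference between brighter and other arrays, and 1 column per array; vertical lines part the groups and horizontal lines the complexes. Most rows are blue on LIF replicate 1 and donor replicates 1 and 2, the starred arrays, and 41 of 79 genes have their lowest signal on donor replicate 1.

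In complex I, 35 of 36 members were tested. The arm that stands in the matrix binds NADH and passes electrons down a chain of iron-sulfur clusters, and the membrane arm pumps protons. In the module that binds NADH, Ndufv1, Ndufv2 and Ndufs1 were at 0.25, 0.41 and 0.17 without LIF and at -0.41, -0.63 and -0.19 with the donor against its absence. In the module that hands electrons to ubiquinone, Ndufs3, Ndufs7 and Ndufs8 were at -0.60, -0.01 and -0.36 with the donor. The 6 tested accessory subunits of the NADH module all had lower means with the donor, both against no LIF (median -0.61) and against LIF (median -0.37).

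Ndufa7, an accessory subunit of that module, had the smallest p of complex I. Its signal was 1630, 2728 and 2323 on the LIF arrays, 2394, 2807 and 3741 on the no LIF arrays and 1347, 1121 and 2350 on the donor arrays. Every donor array lay below every array without LIF, though donor replicate 3 and no LIF replicate 1 nearly met. The donor difference was -0.94 (SE 0.35), with a limma p of 0.0208 unadjusted and 0.929 adjusted, and all 4 other tested probe sets of the gene had the same sign.

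Ndufab1, the mitochondrial acyl carrier protein that also sits in complex I, read 1115, 1257 and 1586 on the LIF arrays, 1929, 2184 and 1738 on the no LIF arrays and 882, 1887 and 1795 on the donor arrays. Its arrays without LIF were all above those with LIF, by 0.57 (SE 0.34, limma adjusted p 0.973). Ndufb11, a membrane arm subunit, had means of 2443 ± 180.9 with LIF, 2191 ± 516 without and 1803 ± 127.9 with the donor (SD, n = 3). Its donor arrays, 1870.0, 1883 and 1655, were all below the LIF arrays, which read 2377, 2304 and 2648, a difference of -0.44 (SE 0.26). The 2 other probe sets of the gene had the same sign.

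Ndufc2, a membrane arm subunit and the brightest member of the complex, was the steadiest of the 79. It read 2537, 2336 and 2486 on the LIF arrays, 2281, 2371 and 2451 on the no LIF arrays and 2753, 2547 and 2276 on the donor arrays. The groups overlapped, and the highest array was 1.21-fold the lowest, against a median of 2.92-fold over all members.

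Ndufa4 and Ndufa4l2 carry complex I names, but Ndufa4 is now known as a subunit of complex IV, and Ndufa4l2, its paralog, is known as a hypoxia-induced gene. Ndufa4 read 620.0, 888 and 1062 on the LIF arrays, 945, 908 and 981.5 on the no LIF arrays and 528, 221 and 983 on the donor arrays. Donor replicates 1 and 2 were its lowest arrays and donor replicate 3 was at the level of the arrays without LIF (difference -0.95, SE 0.48). Ndufa4l2 had the widest range of the 79 tested members, with its highest array 20.7-fold its lowest. Its signal was 209.6, 54.2 and 208 on the LIF arrays, 20.1, 415 and 336 on the no LIF arrays and 52.2, 45.6 and 49.3 on the donor arrays. The donor arrays were all below the LIF arrays and close to each other, while both other groups were split, so the differences of -1.40 and -1.51 from them carry an SE of 0.96.

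Complex II, succinate dehydrogenase, has 4 members, all tested, and is the only complex that is also an enzyme of the citric acid cycle. Sdha, the flavoprotein that oxidises succinate, read 390, 891 and 733 on the LIF arrays, 965, 1019 and 950.1 on the no LIF arrays and 485, 610.4 and 910 on the donor arrays. The 3 arrays without LIF were close together and above all others, with a difference of 0.62 from LIF (SE 0.38) and a donor difference of -0.60 (SE 0.38). Of its 2 other tested probe sets, both shared the sign of the former and 1 that of the latter. Sdhc, a membrane anchor, read 508, 531 and 489 on the LIF arrays, 584, 959 and 669 on the no LIF arrays and 273, 331 and 578.5 on the donor arrays. Its donor arrays lay below those without LIF, with a difference of -0.94 (SE 0.36, limma p 0.0248 unadjusted and 0.929 adjusted). Sdhb, the iron-sulfur subunit and brightest of the complex, read 1323, 1203 and 1311 on the LIF arrays, 1088, 2081 and 1241 on the no LIF arrays and 794, 1173 and 1159 on the donor arrays. Its donor arrays were all below its LIF arrays, with a difference of -0.32 (SE 0.32). The complex II donor median ran from -1.05 without donor replicate 3 to -0.50 without donor replicate 1.

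Complex III, the cytochrome bc1 complex, had 8 tested members. Uqcrc1 and Uqcrc2 are its large core proteins, and the others named here are small. Uqcrc2 had the smallest p of all members for no LIF against LIF. It read 902.5, 1703 and 1345 on the LIF arrays, 2052, 1901 and 2033 on the no LIF arrays and 1003, 1192 and 1796 on the donor arrays. The arrays without LIF were above all 6 others, by 0.65 over LIF (SE 0.33, limma p 0.0742 unadjusted and 0.973 adjusted), and the donor difference was -0.63 (SE 0.33).

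Its partner Uqcrc1 had a like donor difference, -0.65 (SE 0.40), but another pattern over the arrays. It read 2834, 1917 and 2450 on the LIF arrays, 1347, 3819 and 2865 on the no LIF arrays and 1432, 2234 and 1200.0 on the donor arrays. It was lowest on no LIF replicate 1 and donor replicate 3, where Uqcrc2 was high, and its groups overlapped in every comparison. Uqcrb, a small subunit and the brightest of the complex, read 1612, 4394 and 4250 on the LIF arrays, 5635, 4059 and 4246 on the no LIF arrays and 1819, 2216 and 5778 on the donor arrays. It was low on the 3 brighter arrays alone, which left means of 3418 ± 1566, 4647 ± 861 and 3271 ± 2180 in the 3 groups (SD, n = 3).

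Complex IV, cytochrome c oxidase, had 15 of 17 members tested. On LIF replicate 1 its mean deviation was 0.06, while complexes I, II, III and V were at -0.33, -0.32, -0.70 and -0.65. The 5 members with a mean signal under 100 (Cox4i2, Cox6a2, Cox7a1, Cox7c and Cox8c) averaged 0.81 on that array. The other 10 averaged -0.32, a split made after the values were seen. Not every dim member was high there, as Cox7a1 read 32.5, against 23.5 to 120.4 over all arrays. Ndufb1 of complex I, the only tested member of another complex under that limit, was at -1.86. Many complex IV subunits come as isoforms from separate genes, a main form and one known for lung, muscle, heart or testis. Cox8a, the widely expressed form of the smallest subunit, read 881, 1027 and 1271 on the LIF arrays, 1052, 1439 and 1057 on the no LIF arrays and 564, 364 and 969 on the donor arrays. Every donor array was below those without LIF, with a difference of -0.999 (SE 0.38, limma p 0.0237 unadjusted and 0.929 adjusted), and its difference from LIF was -0.84 (limma p 0.0492 unadjusted and 1 adjusted). Its other tested probe set had the same sign in both.

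Cox7a1, the form known from heart and muscle, had the smallest unadjusted limma p of all members, 0.0207 for the donor against no LIF (adjusted p 0.929). It was dim, at 32.5, 76.3 and 94.6 on the LIF arrays, 47.6, 115 and 120.4 on the no LIF arrays and 23.5, 29.3 and 44.3 on the donor arrays. The donor arrays were below those without LIF, with a difference of -1.40 (SE 0.51), though donor replicate 3 and no LIF replicate 1 were close. Cox7a2, the form known from liver, read 2347, 3781 and 4570.0 on the LIF arrays, 5077, 4419 and 4334 on the no LIF arrays and 1730.0, 3104 and 5074 on the donor arrays. Its groups overlapped, and its donor difference was -0.61 (SE 0.39). Cox7a2l, which helps join complexes III and IV and is counted here by its name, had differences of 0.69 without LIF and -0.76 with the donor (SE 0.40 each).

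Cox6b2, the form known from testis, read 572, 529 and 782 on the LIF arrays, 630.4, 611 and 1202 on the no LIF arrays and 363, 348 and 598 on the donor arrays. The donor arrays were below those without LIF, with a difference of -0.87 (SE 0.38, limma p 0.0433 unadjusted and 0.929 adjusted), the gap between the groups being small next to the spread within them. Cox6b1, the widespread form, had a donor difference of -0.88 (SE 0.45), with donor replicate 3 among the arrays without LIF. Cox5a and Cox5b, which are not isoforms of each other, had donor differences of -0.58 (SE 0.27) and -0.59 (SE 0.33). For Cox5b every donor array, 1836, 2845 and 3855, was below the arrays without LIF, at 3879, 4289 and 4167, and 3 of its 4 other tested probe sets shared the sign.

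Cox4i1 and Cox6a1, the widespread forms of their subunits, showed the smallest donor differences among the bright members of the complex, -0.21 (SE 0.29) and -0.13 (SE 0.27). Cox6a1, the brightest, read 7598, 5266 and 7249 on the LIF arrays, 4627, 7042 and 7442 on the no LIF arrays and 5853, 6794 and 4619 on the donor arrays. Its groups overlapped, and its lowest arrays were again no LIF replicate 1 and donor replicate 3. The paired forms Cox4i2, Cox6a2 and Cox8c were dim. Cox4i2, the form known from lung and induced by hypoxia, read 32.6, 4.96 and 15.3 on the LIF arrays, 6.25, 24.7 and 20.4 on the no LIF arrays and 22.3, 18.5 and 4.54 on the donor arrays. Cox6a2, of heart and muscle, read 61.4 on LIF replicate 1 and 12.04 to 28.2 on the other 8 arrays. Cox8c, a testis form, read 174, 47.6 and 64.2 on the LIF arrays, 40.04, 73.2 and 45.4 on the no LIF arrays and 138.9, 102.2 and 36.1 on the donor arrays. All 3 of these dim forms had their highest signal on LIF replicate 1, the array with the highest median signal.

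**Figure D3:**
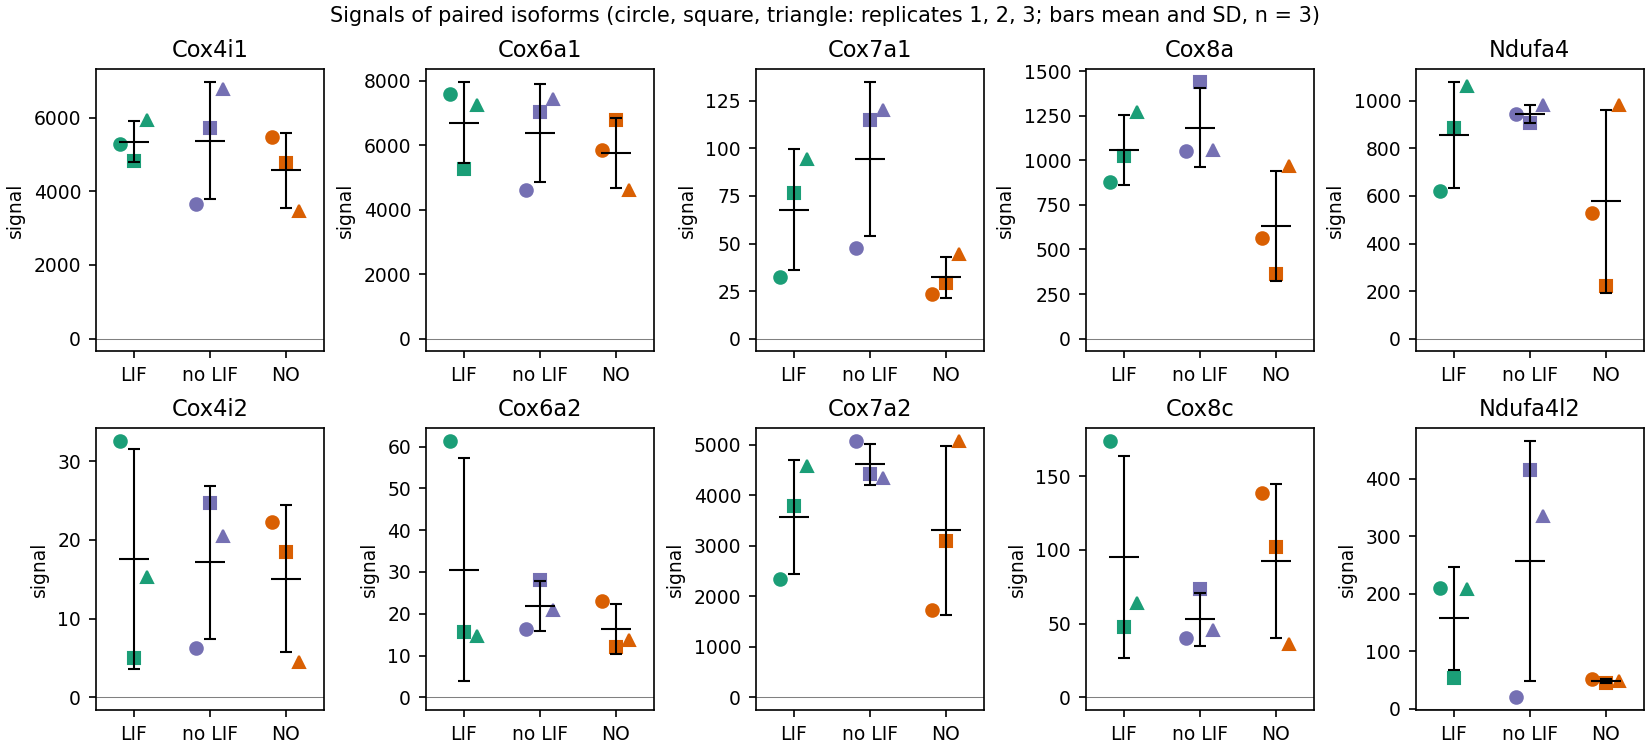
Signal (vertical axis, linear, each panel with its own scale) of 10 subunit genes that form isoform pairs, by group (horizontal axis; NO is no LIF with the donor); circles, squares and triangles are replicates 1, 2 and 3, and black bars the mean and SD (n = 3). For Cox8a and Cox7a1 the donor arrays lie below all arrays without LIF, and Ndufa4l2 reads 45.6 to 52.2 with the donor against 20.1 to 415 without LIF.

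Complex V, the ATP synthase, had all 17 members tested, and all 17 had a higher mean without LIF than with LIF and a lower one with the donor than without. At passage 34 alone, 10 of the 17 were higher without LIF, and 12 were higher with the donor than without. In its catalytic head, Atp5a1 (alpha subunit) read 2909, 3558 and 3403 on the LIF arrays, 3606, 5791 and 4323 on the no LIF arrays and 2501, 2735 and 3439 on the donor arrays. The arrays without LIF were above all others, by 0.45 over LIF (SE 0.26) and with a donor difference of -0.65 (SE 0.26, limma p 0.0313 unadjusted and 0.929 adjusted). Both its other tested probe sets had the same sign in these 2 comparisons. Atp5b (beta subunit, which carries the catalytic sites), the brightest of the complex, read 7655, 5178 and 5594 on the LIF arrays, 5432, 7506 and 7295 on the no LIF arrays and 5485, 5215 and 4473 on the donor arrays. Its groups overlapped and its donor difference was -0.41 (SE 0.24).

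Atp5g1, Atp5g2 and Atp5g3 encode the same mature c subunit of the rotating ring. Their donor differences were -0.80 (SE 0.38), -0.59 (SE 0.29) and -0.33 (SE 0.29), and their differences without LIF were 0.18, 0.45 and 0.25. The 1 other tested probe set of Atp5g2 had the opposite sign without LIF. Atp5g1 was lowest on donor replicates 1 and 2, at 440.2 and 490.4, and read 968 on donor replicate 3, within the range of the other groups. The median donor difference was -0.50 for the 5 tested head subunits, -0.59 for the 3 c subunits, -0.59 for the 4 of the stalk and -0.70 for the 5 small subunits of the membrane part.

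**Figure D4:**
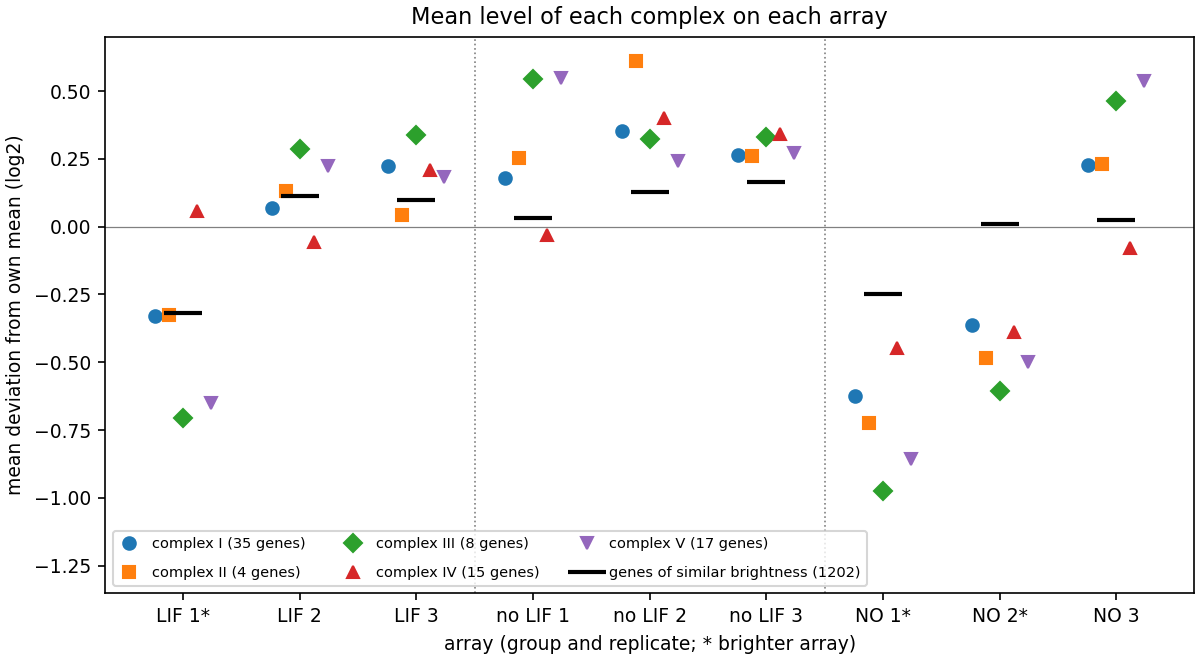
Mean deviation of the tested genes of each complex from their own means, in log2(signal + 3), on each array (horizontal axis, grouped by condition); coloured symbols are complexes I to V and black bars 1202 genes of similar brightness. The 5 complexes reach from -0.45 to -0.97 on donor replicate 1 and from -0.36 to -0.60 on donor replicate 2, but from -0.08 to 0.54 on donor replicate 3.

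Within a group the subunits differed by array. Averaged over the 79 members, the deviation was -0.36, 0.10 and 0.21 on the LIF arrays, 0.26, 0.35 and 0.29 on the no LIF arrays and -0.68, -0.43 and 0.26 on the donor arrays. The genes of similar brightness were at -0.32, 0.11 and 0.10, then 0.03, 0.13 and 0.16, then -0.25, 0.01 and 0.02. Donor replicate 2 was thus low for the subunits and near the mean for other genes of their brightness, while LIF replicate 1 was low for both. Of the members, 66 had their lowest signal on 1 of the 3 brighter arrays, and 26 had their highest on no LIF replicate 2.

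Set against the other 6 arrays, the 3 brighter arrays had lower means for 66 of 79 members, with a median of -0.80. For 44 members, or 55.7%, all 3 brighter arrays were below all 6 others, against 21.9% of the genes of similar brightness and 7.27% of all tested probe sets. The median was -0.65 for complex I, -0.84 for II, -1.22 for III, -0.74 for IV and -0.89 for V. This is a description with no test, as the arrays were parted by their own median signal.

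Members of 1 complex did not move alike. The difference between brighter and other arrays was below -1 for 24 members and within 0.2 of 0 for 13. The genes named next were chosen after their values were seen. Atp5e (epsilon subunit of the head) showed the lowest value, -2.03. It read 121, 633 and 426 on the LIF arrays, 794, 360.0 and 737 on the no LIF arrays and 146, 175 and 857 on the donor arrays. Atp5j (coupling factor 6 of the stalk; promoter shown above) read 282, 1316 and 1000.0 on the LIF arrays, 1821, 916 and 899 on the no LIF arrays and 374, 386 and 1846 on the donor arrays. Uqcrh (the hinge protein of complex III; promoter shown above) read 592, 1418 and 1693 on the LIF arrays, 2207, 981 and 1802 on the no LIF arrays and 379.9, 533 and 1968 on the donor arrays.

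All 3 of these genes, from 2 complexes, had their 3 lowest signals on the 3 brighter arrays and their 2 highest on no LIF replicate 1 and donor replicate 3. Cox6c and Uqcr10, both small subunits, were at -1.81 and -1.70, and all 5 small membrane subunits of complex V were below on the brighter arrays, with a median of -1.46. Ndufs7, Ndufs8, Ndufv1, Ndufa9, Cox4i1 and Atp5b lay between 0.01 and 0.12, and Uqcrc1 was at -0.0027. Core and catalytic subunits were on both sides, with Sdha at -0.89, Ndufv2 and Uqcrc2 at -0.80, Ndufs1 at -0.65, Ndufs3 at -0.62 and Atp5a1 at -0.54. Cox8c and Cox4i2 were at 1.39 and 0.97, above on the brighter arrays. No LIF replicate 1 and donor replicate 3 held the 2 highest signals for 24 members and the 2 lowest for 7.

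**Figure D5:**
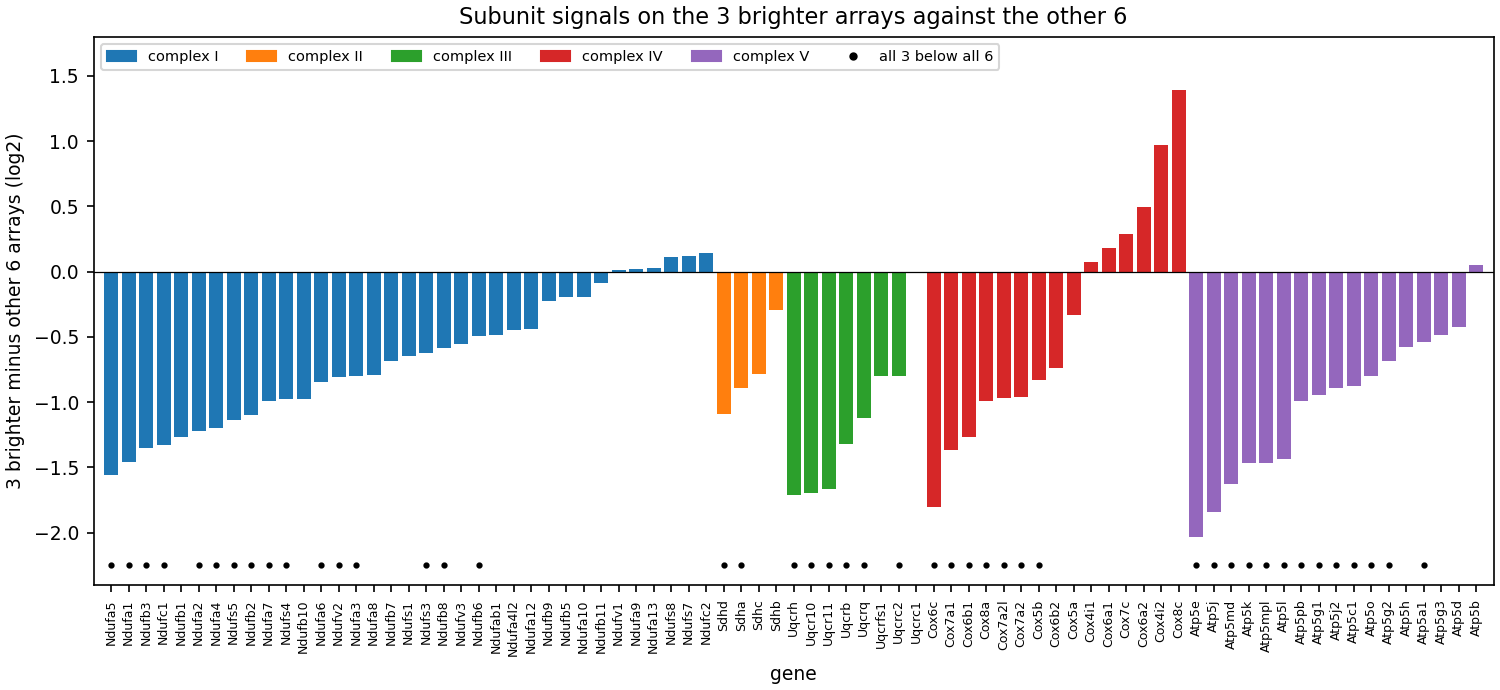
Difference between the mean log2(signal + 3) on the 3 brighter arrays and on the other 6 (vertical axis) for each of the 79 tested genes, coloured by complex and ordered within it; dots mark genes whose 3 brighter arrays were all below the other 6. Of the bars, 66 point down, to -2.03 for Atp5e, and 44 carry a dot.

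Members below on all brighter arrays and the other members were set side by side for gene span and promoter letters, with no test. The median genomic span in RefSeq was 7.23 kb for the 44 members below on the brighter arrays and 7.64 kb for the other 35. NRF1 letters were in 24.4% of 41 windows of the former and 17.9% of 28 windows of the latter, and YY1 letters in 12.2% and 14.3%. For the 47 members with other tested probe sets, 77 in all, the sign was shared by 67 for no LIF against LIF, by 69 for the donor against no LIF and by 50 for the donor against LIF.

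Other genes of the pathway were read from lists written for this work. Of 48 assembly factors, which build the complexes without staying in them, 45 were tested and 0 were called by limma in any comparison. Their medians were 0.15 for no LIF against LIF and -0.31 for the donor against no LIF, with 34 of 45 lower in the latter. Relative to genes of the same decile of mean signal they were 0.12 and -0.19, with 33 of 45 lower in the latter. The brightest were Uqcc2, at -0.48 (SE 0.34) with the donor, and Cox17, the copper chaperone of complex IV, at -0.66 (SE 0.57). Cyc1, Cycs and Atpif1, respiratory genes outside the naming rule, were at -0.20, -0.56 and -0.68 with the donor.

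In the citric acid cycle and the pyruvate dehydrogenase complex, which feed the chain with NADH and succinate, 15 of 16 genes were tested and 0 called by limma. Their median was 0.39 without LIF, with 14 of 15 higher, and -0.31 with the donor, with 14 of 15 lower. Relative to genes of the same decile of mean signal it was 0.24, with 12 of 15 higher, and -0.20, with 11 of 15 lower. Mdh2 (malate dehydrogenase) and Pdhb (a pyruvate dehydrogenase subunit), the brightest, were at -0.14 (SE 0.32) and -0.21 (SE 0.36) with the donor. Of 18 genes for mitochondrial biogenesis, which include the factors of the motifs searched, 17 were tested. Their medians were 0.22 and -0.05, with 10 of 17 lower with the donor. The brightest were Ssbp1, which binds single-stranded mitochondrial DNA, at -0.16 (SE 0.66), and Yy1, at -0.11 (SE 0.29). At an unadjusted limma p under 0.05 the donor comparison held 1 lower assembly factor, 1 lower gene of the cycle and 1 higher biogenesis gene, against 0.782% of all probe sets lower and 4.24% higher, and the other comparisons held 0 of these 3 lists in either direction.

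A single gene of the mitochondrial genome was tested, ND5, a proton-pumping subunit of complex I. It read 5720, 2530 and 4644 on the LIF arrays, 4538, 4122 and 1567 on the no LIF arrays and 11740, 4053 and 3592 on the donor arrays. Donor replicate 1, where most nuclear subunits were lowest, was its highest array. The groups overlapped, and the donor difference was 0.85 (SE 0.54).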

How the data were processed

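The 9 Affymetrix Mouse Genome 430 2.0 arrays hold total RNA labelled with biotin. The deposited values are signal intensities on a linear scale, 1 column per array. Per the labels' design text, GCOS 1.4.0.036 (Affymetrix's GeneChip software) made them with global scaling, and MAS5 is named per the submitters' processing notes. The table has 45101 probe sets; 34958 have 1 gene symbol in the platform annotation, 932 several and 9211 none, and only the first were named. The 64 control probe sets were left out.

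Signals were turned to log2(signal + 3), a scale that understates changes of dim genes. A probe set was tested where 3 or more arrays had it at or above their own 40th percentile. The 3 comparisons came from 1 fit over all 9 arrays, with group as the only term (limma 3.58.1 in R 4.3.3, lmFit and eBayes with trend, two-sided), adjusted by Benjamini-Hochberg over 29811 probe sets at 0.05. The fit was tested on simulated data. The number of arrays limits the precision: the median SE of a member's log2 difference was 0.38.

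Members and lists were chosen with earlier results of these data known, so counts over them are descriptions. Named were, in each complex, the brightest member and that with the smallest limma p in each comparison, all tested isoform family members, and the 2 brightest of other lists; isoforms not given singly are within the counts. Replicate numbers stand for passages, and whether they pair arrays was checked. Alternatives were the pseudocount, filter, normalization, brightness deciles, variance trend, arrays in the fit, replicate block, choice of probe set and omission of each array. After the data were seen, a brightness block and fits without arrays that stand apart were added. Protein sequences were not used here.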

Additional observations from a re-analysis of the deposited data

How the results depend on the processing

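No probe set was called by limma under any setting run. Medians over all members and over each complex kept their sign and lay within 1 SD of the reported value, except as follows. The array brightness block gave, for the donor against no LIF, -0.11 over all members, -0.16 for complex I, -0.25 for II, 0.15 for III, -0.39 for IV and -0.0034 for V, with 28 members higher, and for the donor against LIF 0.0441 for complex III, with 34 members higher; it also turned complex V there to 0.22, within 1 SD. Median centring moved every value by 0.22 for no LIF against LIF and by -0.23 for the donor against no LIF, giving 0.48 and -0.82 for complex IV and 1 member higher with the donor. Members higher with the donor than without it were 5 with no filter, 6 after quantile normalization, 6 relative to the brightness decile, 6 from unsuffixed probe sets alone and 5 without both second arrays of LIF and no LIF, against 3 as reported. Against LIF they were 8 from unsuffixed probe sets, with -0.50 for complex IV, 24 without both second arrays and 6 without the alike arrays, against 14. Complex IV was -0.0024 for no LIF against LIF without both second arrays, and -0.89 for the donor without the alike arrays. Leaving out 1 array at a time gave 3 to 7 members higher for the donor against no LIF and 6 to 33 against LIF, with -1.05 to -0.50 for complex II and -0.85 to -0.45 for complex IV in the former. Leaving out donor replicate 1 turned complex V against LIF to 0.19, within 1 SD. Of 1314 values of named genes under the other settings, 38 moved by over 1 SD and 65 changed sign; of 810 with 1 array left out, 0 moved that far and 47 changed sign. The cause of these moves was not tested. With the replicate block, medians were as reported, such as 0.32, -0.60 and -0.21 over all members, and 0 probe sets were called. Same-numbered arrays did not deviate together, with correlations from -0.60 to 0.65 over 9 pairs (median -0.15), against -0.64 to 0.64 over 18 pairs of different number, so the arrays are treated as sharing only a number.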
